A study of Rattus norvegicus with 15 samples.

Results

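On the rat tiling array of this series, 1430 of 16784 regions were built from long probes and lay outside 5 windows taken as receptor gene clusters; their methylation signal was measured in peripheral blood. A region was a run of at least 3 probes in which neighbouring probes were separated by no more than 500 bp. It was counted as a region of long probes when its mean probe length was at least 54 nt, since the array uses probes between 45 and 60 nt and a longer probe stands for a stretch of lower GC content. Long-probe regions that overlapped 158 to 170 Mb of chromosome 1, 67 to 79 Mb of chromosome 3, 16 to 22 or 40 to 45 Mb of chromosome 8, or 59 to 62 Mb of chromosome 10 were set aside; there were 446 of these, and 14908 further regions had shorter probes. The rule for membership uses only probe positions. The files pair no probe with a gene and hold no probe sequence, so regions are named by position in the rn4 assembly (RGSC 3.4), GC content itself was not measured, and the tissue could not be checked against marker genes.

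Methylated DNA immunoprecipitation (MeDIP) uses an antibody against 5-methylcytosine to recover methylated fragments of sheared genomic DNA, which are then compared with the unselected input DNA. In mammals most methylated cytosines lie in CpG dinucleotides, and AT-rich sequence usually holds few of them, so even a fully methylated AT-rich stretch gives the antibody few targets and is poorly recovered. CpG islands are the opposite case, dense in CpG and often unmethylated at promoters. A low MeDIP signal at a long-probe region is therefore not a direct measure of the fraction of its CpGs that are methylated.

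The blood came from male Sprague Dawley rats, 20 weeks old, with 3 rats and 3 arrays in each of 5 groups, and the labels call these biological replicates. All 4 diabetic groups had received streptozotocin (STZ), a toxin of pancreatic beta cells, at 45 mg/kg into a vein, as a model of diabetic retinopathy (DR). LTF rats were then gavaged with Luo-tong formula, a Chinese herbal formula, at 2 g/kg/day and given insulin at 1.5 IU/day. A second diabetic group received another Chinese formula ("another Chinse formula" in the labels), for which the labels name no identity, dose or insulin; it is called the other formula. CaD rats were gavaged with calcium dobesilate, a drug used for diabetic microvascular disease, at 0.25 g/kg/day and given insulin at 1.5 IU/day. DR model rats were gavaged with distilled water, and no insulin is named for them. Control rats had received citric buffer without STZ and were raised on distilled water. The effect of LTF or CaD cannot be told apart from that of the insulin given with it. Whole blood is a mixture of cell types, and a change of methylation within cells cannot be told apart here from a change in the blood's cell makeup.

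Each array carried 172669 probes, of which 16363 lay in the long-probe regions. The value of a region was the mean over its probes of log2(MeDIP/input), the Cy5 over the Cy3 processed signal, after each array was centred on its own median, so 0 is the array's median probe. Arrays were scanned in 6 scans on 3 days. The 3 LTF arrays filled a scan and a day of their own, so LTF cannot be told apart from its scan. Scan 3 held the other formula and CaD replicate 3, scan 5 control replicates 2 and 3 with DR model replicate 1, and scan 6 CaD replicates 1 and 2 with DR model replicate 3. DR model replicate 2 and control replicate 1 were scanned alone, on the day of scan 3. Scan 3 held no control or DR model array, so only CaD replicate 3 ties the other formula to groups in other scans.

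The long-probe regions gave far less MeDIP signal relative to input than the rest of the array. Their median level was -0.97, with quartiles of -1.29 and -0.63 and a range of -2.42 to 1.11, whereas regions of shorter probes had a median of 0.02. Of 1429 long-probe regions measured on all arrays, 81 (5.67%) lay above 0, against 52.3% of the shorter-probe regions. Long-probe regions inside the receptor windows were as low, with a median of -1.07 and 1.12% above 0. The last of the 1430, a run of 3 probes on chromosome 2 at 52485018 to 52485389, lacked a value on an array and was not tested.

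**Figure D1:**
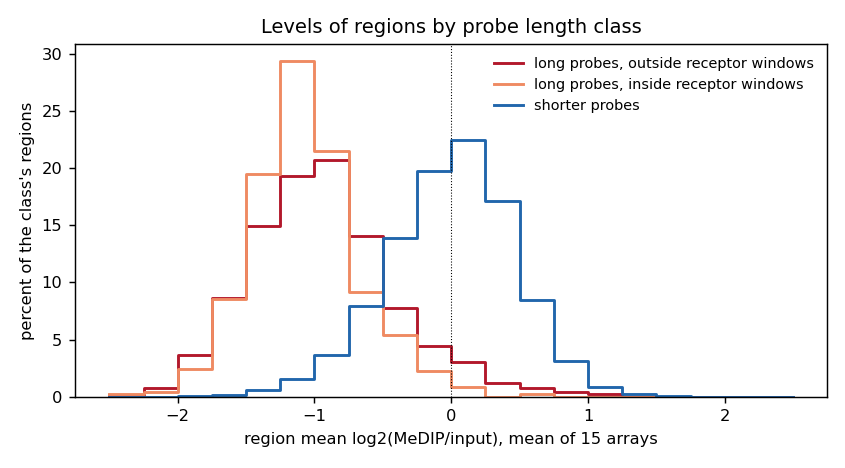
Levels of regions by probe length class. The x axis is the mean log2(MeDIP/input) of a region over 15 arrays in steps of 0.25 and the y axis the percent of the class's regions; lines stand for long-probe regions outside the receptor windows, long-probe regions inside them and shorter-probe regions, with medians of -0.97, -1.07 and 0.02.

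The low level was carried by both channels but mainly by the MeDIP channel. Median background-subtracted MeDIP signal over the member probes was between 13.3 and 27.0 per array. Over the probes of all other regions it was 43.5 to 83.9. Median background-subtracted input signal was 30.01 to 55 over member probes and 46.0 to 75.6 over the others. The MeDIP signal was well above background for 56.7% to 75.9% of member probes per array, against 79.8% to 91.5% of the others, and the input signal for 85.6% to 96.5% of member probes. In 6 regions no probe's MeDIP signal was well above background on any array of at least 1 group, so the level there is an upper bound; 1 of these 6 was among the regions called in the comparison of the diabetic groups with control. The median SD within groups was 0.164 for long-probe regions and 0.101 for shorter-probe regions.

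Level followed probe length among the members too. Regions with a mean length of 54 to 55 nt had a median level of -0.74 (420 regions), those of 56 to 57 nt one of -1.13 (291 regions) and those of 58 to 60 nt one of -1.21 (148 regions). The correlation of mean length with level was -0.68 over all 16782 tested regions and -0.33 over the 1429 members; these regions share the same 15 arrays, and the coefficients are given as a description. Probe length did not fix the level. Probes of 60 nt averaged -1.22 in the long-probe regions (7947 probes) and -0.91 elsewhere (15551 probes), and the shortest probes, of 45 nt, averaged -0.16 (1227 probes) and 0.32 (82337 probes). At the same length, probes that lay in long-probe regions thus read lower than probes elsewhere. The low level ran along the whole region: in the 985 members of 8 to 12 probes, the mean level of 5 equal stretches, in order along the chromosome, was -0.97, -1.0, -1.03, -1.0 and -0.87, with mean probe lengths of 55.7, 55.8, 57.04, 56.2 and 54.9 nt.

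Most of the regions were short and alike in design, but a few were long tracts. They held a median of 9 probes over 1652.5 bp, 985 of them (68.9%) held 8 to 12 probes, and 97 held at least 20. The member with most probes, on chromosome 1 at 115312109 to 115354565, spanned 42457 bp with 242 probes and a level of -1.44. On chromosome 13, a tract of 222 probes at 51091432 to 51132702 had a higher level of -0.41, and a tract of 196 probes on chromosome 9 at 22124657 to 22162564 had one of -0.99. These tracts were therefore not all equally depleted. For the first, the values were -1.25, -1.26 and -1.52 on LTF arrays, -1.58, -1.36 and -1.35 with the other formula, -1.33, -1.26 and -1.42 with CaD, -1.57, -1.56 and -1.28 in the DR model, and -1.46, -1.56 and -1.84 in control. Control replicate 3 was the lowest array. The CaD arrays lay above all control arrays, whereas the other diabetic groups overlapped with control (mean of the 4 diabetic groups minus control 0.22 ± 0.09 (SE), adjusted p = 0.108, limma).

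Long-probe regions were grouped along the chromosomes. The next region on the chromosome was also a member for 48.2% of members and for 4.8% of other regions. In bins of 5 Mb, 31 bins with at least 10 members held 684 of them (47.8%), while 148 of the 359 bins with members held only 1. The densest bin, 165 to 170 Mb of chromosome 4, had 43 members among 72 regions, with a median level of -1.27. It was followed by 0 to 5 Mb of chromosome 20 (41 of 200), 5 to 10 Mb of chromosome 7 (36 of 67), 215 to 220 Mb of chromosome 1 (35 of 56) and 95 to 100 Mb of chromosome 3 (34 of 60). By chromosome, members made up 18.6% of the regions on X (113 of 606), 15.8% on chromosome 11 and 15.4% on chromosome 4, but 1.35% on chromosome 12 and 1.64% on chromosome 19. Neighbouring members are alike in position and in having long probes, so they cannot be taken as independent of each other.

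The 5 members with the highest level stood about as far above the array median as the typical member stood below it. A 3-probe run on chromosome 5 at 4663775 to 4664148 reached a mean of 1.11, and a 10-probe region on chromosome 2 at 204319023 to 204320667 reached 1.1. The others were on chromosome 10 at 100512905 to 100514517 (1.0), chromosome 13 at 40007094 to 40008046 (0.96) and chromosome 2 at 242964350 to 242965892 (0.93). At all 5 the MeDIP signal was well above background for at least 97.8% of probe readings, and none of the 5 passed the test for a difference between the diabetic groups and control. In the 10-probe region the values were 1.09, 1.12 and 0.96 on LTF arrays, 1.11, 1.01 and 0.90 with the other formula, 1.12, 1.09 and 0.98 with CaD, 1.18, 1.29 and 1.03 in the DR model, and 1.24, 1.18 and 1.16 in control. All 3 control arrays lay above the LTF, other formula and CaD arrays and overlapped with the DR model arrays.

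The lowest member lay on chromosome 7 at 6357690 to 6359444, with 11 probes and a mean of -2.42. It read -2.63, -2.64 and -2.72 on LTF arrays, -2.42, -2.31 and -2.17 with the other formula, -2.41, -2.12 and -2.33 with CaD, -2.69, -2.34 and -2.28 in the DR model, and -2.07, -2.37 and -2.86 in control. Control spread over the whole range of the other groups, and the diabetic groups did not differ from it (difference 0.01 ± 0.12 (SE), adjusted p = 0.954, limma). The next lowest were on chromosome 9 at 971222 to 972942 (-2.30), chromosome 1 at 61933404 to 61934587 (-2.19), chromosome 17 at 44432705 to 44433554 (-2.16) and chromosome 4 at 167910970 to 167912682 (-2.12), and none of these passed either.

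At the longest end, 19 members consisted of 60-nt probes alone. The first 3 of them by position, all on chromosome 1, had levels of -1.21 at 49183602 to 49185120, -1.46 at 57428922 to 57430581 and -1.31 at 216505061 to 216505970. At the threshold, 47 members had a mean length of exactly 54 nt, and their levels varied widely. The first 3 by position were on chromosome 1 and had levels of -2.02 at 1233903 to 1235306, 0.83 at 7955158 to 7956867 and 0.22 at 38707295 to 38708334. The 3 regions just outside had mean lengths of 53.94 to 53.99 nt and levels of -0.58, -0.69 and -0.72.

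By group, the members' median level was highest in LTF and CaD and lowest in control, though single arrays overlapped. The array medians were -0.85, -0.88 and -0.94 in LTF, -1.02, -0.91 and -0.90 with the other formula, -0.91, -0.80 and -0.94 with CaD, -1.04, -1.12 and -0.86 in the DR model, and -1.02, -1.09 and -1.27 in control. CaD replicate 2 was the highest of the 15 arrays and control replicate 3 the lowest. Every LTF and CaD array lay above every control array, replicate 1 of the other formula equalled control replicate 1 to 2 decimals, and the DR model arrays overlapped with control. Region by region, control had the lowest of the 5 group means in 937 members (65.6%), compared with 34.9% of all regions. LTF had the highest mean in 512 members and CaD in 511 (35.8% each), compared with 18.4% and 24.3% of all regions.

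**Figure D2:**
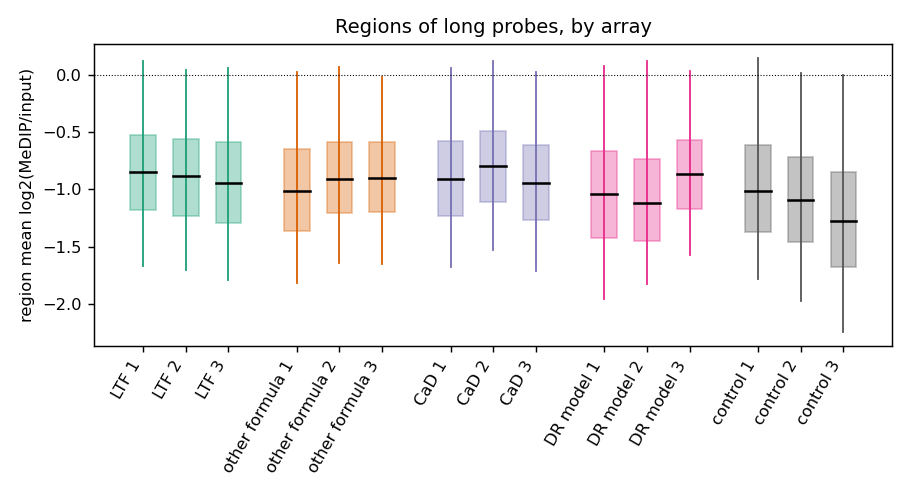
Long-probe regions on each array. The y axis is the region mean of log2(MeDIP/input); boxes span the middle 50% of the 1429 regions, thin lines the 5th to 95th percentiles and black bars the medians, which run from -0.80 (CaD replicate 2) to -1.27 (control replicate 3).

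The first question of the design is how diabetic rats differ from healthy ones, and the direct comparison is the DR model with control. No member passed an adjusted p of 0.05 (limma), and over all 16782 regions 0% were called. At an unadjusted p under 0.05 there were 263 members (18.4%), against 12.7% of all regions. The median difference over members was 0.11, against 0.04 over all regions, and in 147 members every DR model array lay above every control array (10.3%, against 8.47% of all regions), while the reverse held in 11 (0.77%, against 3.04%). The member with the smallest p among these was on chromosome 13 at 58374201 to 58375958. It read -0.43, -0.46 and -0.47 in the DR model and -0.70, -0.93 and -0.83 in control, without overlap (difference 0.37 ± 0.07 (SE), adjusted p = 0.104). LTF (mean -0.54) and CaD (-0.61) lay between, and the other formula (-0.78) was near control (-0.82). A region on X at 79039747 to 79041186 also stood apart without passing: the DR model read -0.40, -0.41 and -0.48 and control -0.87, -0.81 and -0.86 (difference 0.42 ± 0.08 (SE), adjusted p = 0.104). In the lower direction, the first region was on chromosome 4 at 6399008 to 6400707, with 0.13, 0.10 and 0.27 in the DR model against 0.48, 0.39 and 0.41 in control (difference -0.26 ± 0.08 (SE), adjusted p = 0.186).

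Values within scans and days rest on few arrays. On day 1, with 1 array in each group, DR model replicate 2 lay below control replicate 1 (median difference -0.10, against 0.01 over all regions). On day 3, DR model replicates 1 and 3 were a median of 0.21 above control replicates 2 and 3, against 0.05 over all regions. There 10 members were called, all higher, and 0.28% of all regions. Within scan 5 alone the median was 0.12, against 0.04 over all regions. Counts within a scan or day used a spread pooled over all arrays, so a single array was assumed to vary like the others. A difference between days cannot be told apart from one between single arrays.

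With the 4 diabetic groups averaged, the long-probe regions were higher than in control. At an adjusted p under 0.05 (limma), 293 members (20.5%) were higher, against 6.35% of all regions, and 2 (0.14%) were lower, against 2.36% of all regions; in both directions together 8.71% of all regions were called. The median difference was 0.16 over members and 0.02 over all regions, and the difference was above 0 in 84.7% of members and 56.9% of all regions. Among long-probe regions inside the receptor windows 31.4% (140 of 446) were higher, and among shorter-probe regions 4.25%. In 81 members (5.67%) all 12 diabetic arrays lay above all 3 control arrays (2.54% of all regions did so), and in none did all lie below (0.965%). The differences of the called members had a median of 0.38 on the log2 scale, with the highest at 0.76. The direction of the median held in every scaling tried, from 0.03 in the authors' deposited values to 0.22 after loess, while the number of members called moved widely: 64 after quantile normalization, 173 with arrays centred within each probe length, 75 with scan as a random block and 54 without control replicate 3. The share of all regions called in these settings was 3.34%, 6.89%, 1.69% and 1.63%.

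The 4 regions of smallest p among those without overlap are shown by array. On chromosome 14 at 635381 to 636970, a region of 10 probes read -0.65, -0.53 and -0.55 in LTF, -0.69, -0.54 and -0.64 with the other formula, -0.59, -0.61 and -0.65 with CaD, -0.71, -0.89 and -0.71 in the DR model, and -1.0, -1.12 and -1.04 in control. The DR model lay between control and the treated groups. The mean of the diabetic groups exceeded control by 0.41 ± 0.05 (SE, adjusted p = 0.00296), with 8 of 10 probes in that direction. In the 11-probe region on chromosome 1 at 142871937 to 142873647, LTF read -0.84, -0.69 and -0.85, the other formula -1.29, -1.16 and -1.27, CaD -0.97, -0.95 and -1.12, the DR model -1.08, -1.44 and -1.16, and control -1.48, -1.63 and -1.83. All 11 probes pointed the same way, and LTF was the highest group (diabetic mean minus control 0.58 ± 0.08 (SE), adjusted p = 0.00296).

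A region on chromosome 3 at 97301211 to 97302805 had the largest difference of the 4, at 0.73 ± 0.10 (SE, adjusted p = 0.00296). Its values were -0.61, -0.62 and -1.10 in LTF, -1.17, -0.81 and -0.94 with the other formula, -0.92, -1.01 and -1.19 with CaD, -1.34, -1.20 and -1.0 in the DR model, and -1.81, -1.63 and -1.73 in control. Control was tightly grouped below all 12 diabetic arrays, which overlapped among themselves. The MeDIP signal was well above background for only 47.3% of probe readings here and for 45.5% in the chromosome 1 region at 142871937 to 142873647. The same 5 Mb bin, 95 to 100 Mb, held 34 members, of which 16 were called higher. The share called higher was 20.5% over all members and 6.35% over all regions. Other dense bins had fewer calls, such as 2 of 26 members at 40 to 45 Mb of chromosome 11 and 5 of 30 at 20 to 25 Mb of chromosome 14. Another called member of the chromosome 3 bin, at 97599583 to 97601323, differed by 0.59 ± 0.09 (SE, adjusted p = 0.00302, limma), with all 11 probes in that direction. On chromosome 13 at 89950624 to 89952087, LTF averaged -0.60 ± 0.06, the other formula -0.68 ± 0.14, CaD -0.62 ± 0.02, the DR model -0.78 ± 0.16 and control -1.13 ± 0.05 (SD, n = 3 each; diabetic mean minus control 0.46 ± 0.07 (SE), adjusted p = 0.00296). The last of the 6 regions named for this comparison, on chromosome 1 at 62224553 to 62225401, differed by 0.56 ± 0.08 (SE, adjusted p = 0.00302).

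**Figure D3:**
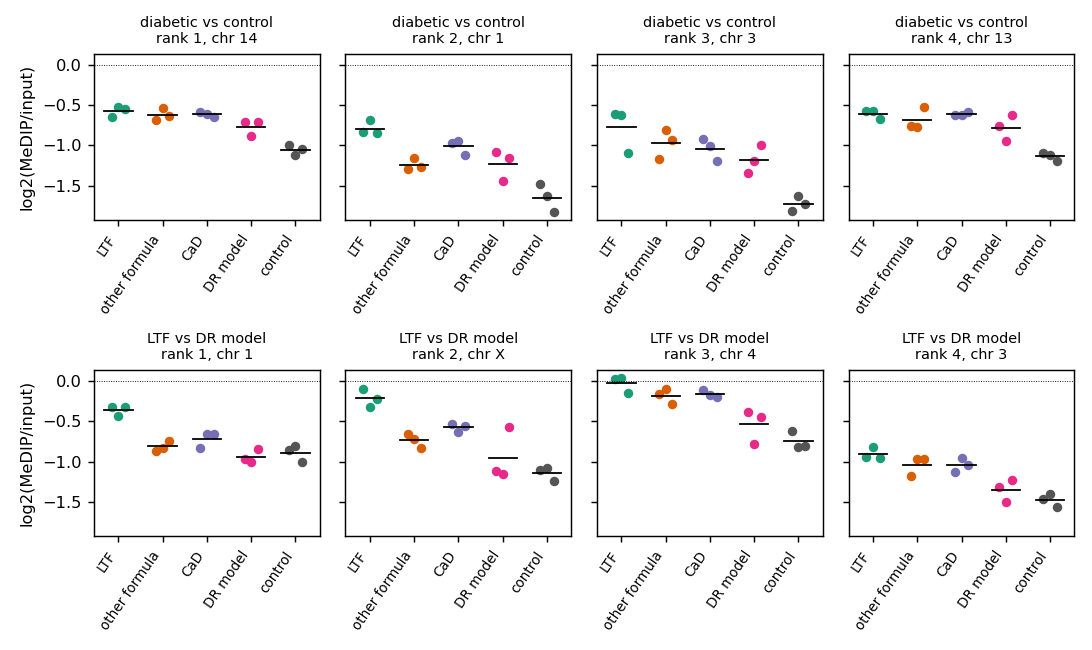
The 4 long-probe regions of smallest p that were higher in the diabetic groups than in control (top row) and higher in LTF than in the DR model (bottom row). The y axis is the region mean of log2(MeDIP/input), each dot an array and each line a group mean; in the top row the 3 control arrays lie below all others.

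The 2 members called lower than control were added to this comparison after their values were seen, since in neither did all diabetic arrays lie below all control arrays. The naming rule picked both of them in other comparisons. The one on chromosome 9 at 104822837 to 104824550 averaged -0.71 in LTF, -0.63 with the other formula, -0.56 with CaD and -0.66 in the DR model, against -0.15, -0.09 and -0.57 on the control arrays (difference -0.37 ± 0.09 (SE), adjusted p = 0.0236). Control replicate 3 lay within the diabetic range there. The one on chromosome 3 at 44525104 to 44526894 averaged 0.04 in LTF, -0.07 with the other formula, -0.04 with CaD and -0.07 in the DR model, against 0.16 in control (difference -0.20 ± 0.05 (SE), adjusted p = 0.0318).

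The share of members called higher depended on their level. It was 24.5% of 188 members below -1.5, 27.2% of 489 between -1.5 and -1, 20.5% of 497 between -1 and -0.5, 5.75% of 174 between -0.5 and 0, and 2.47% of 81 above 0. Shorter-probe regions showed the same order at lower shares: 15.2% of 33, 16.7% of 329, 12.5% of 1734, 5.43% of 5012 and 1.08% of 7799. Within a level bin the 2 classes were thus closer than over all regions, where 20.5% and 4.25% were called higher; the difference within bins was not tested. By probe length, the share was 16.2% at 54 to 55 nt, 17.6% at 55 to 56 nt, 24.4% at 56 to 57 nt, 28.2% at 57 to 58 nt and 21.6% at 58 to 60 nt. Among placed chromosomes it ran between 32.1% on chromosome 3 (34 of 106) or 31.9% on chromosome 1 (74 of 232) and 2.86% on chromosome 10 (1 of 35) or none of 19 on chromosome 6. On X it was 11.5% (13 of 113), and on unplaced sequence 4 of 10 members were called.

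**Figure D4:**
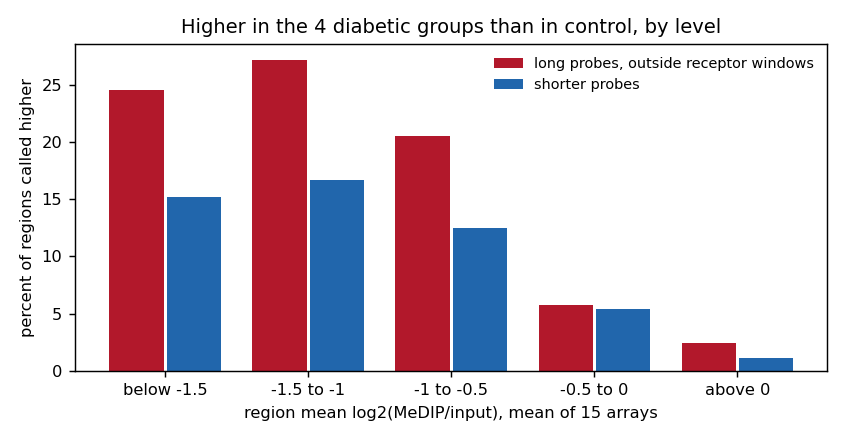
Share of regions called higher in the 4 diabetic groups than in control, by mean level. The x axis is the region mean of log2(MeDIP/input) over 15 arrays and the y axis the percent called at an adjusted p under 0.05; bars stand for long-probe regions outside the receptor windows and for shorter-probe regions, and the long-probe share falls to 2.47% above a level of 0 after 27.2% between -1.5 and -1.

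The arrays also differed in how widely their ratios spread. The slope of an array's member levels on the members' mean over all arrays was 0.98, 0.96 and 1.02 in LTF, 1.03, 0.94 and 0.90 with the other formula, 0.96, 0.92 and 0.97 with CaD, 1.09, 1.05 and 0.89 in the DR model, and 1.01, 1.08 and 1.23 in control. A slope above 1 places low regions lower on that array. Control replicate 3 had the steepest slope and the lowest member median. Without it 54 members were called, with a median difference of 0.09, and 1.63% of all regions. Without control replicate 1 the count was 360, with a median of 0.23, and 9% of all regions. Without control replicate 2 it was 208, with a median of 0.18, and 5.89% of all regions. Each of these fits also has fewer control arrays. Whether the spread of the ratios has a part in the difference was not tested. Quantile normalization, which gives all arrays the same distribution, left 55 members higher and 9 lower, with 3.34% of all regions called.

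Each channel was also examined alone, a choice made after the data were seen, as the log2 processed signal of a region minus the array's median in that channel. The difference between the diabetic groups and control lay mainly in the input channel. There, 838 members (58.6%) were lower in the diabetic groups than in control, against 11.7% of all regions, and 10 were higher, against 18.3% of all regions (limma, adjusted p under 0.05). The median member difference was -0.31 in the input channel, against 0.08 over all regions. In the MeDIP channel 159 members (11.1%) were lower, against 2.79% of all regions, and 6 were higher, against 4.11%, with a median member difference of -0.19 against 0.04. Of the 293 members with a higher ratio, 214 were lower in input, 2 were higher in MeDIP and 10 were lower in MeDIP, with median differences of -0.38 in input and -0.06 in MeDIP. The higher ratio of most of these members thus came with a lower input signal. The region on chromosome 14 at 635381 to 636970 is an example, with differences of -0.53 in input (adjusted p = 0.00153) and -0.18 in MeDIP (adjusted p = 0.192).

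Group means of the array medians were, in the input channel, -0.59 ± 0.067 in LTF, -0.49 ± 0.116 with the other formula, -0.57 ± 0.079 with CaD, -0.46 ± 0.094 in the DR model and -0.25 ± 0.046 in control (SD, n = 3 each). In the MeDIP channel they were -1.42 ± 0.044 in LTF, -1.31 ± 0.086 with the other formula, -1.38 ± 0.055 with CaD, -1.35 ± 0.034 in the DR model and -1.17 ± 0.166 in control. The 3 control arrays had the highest input levels of all 15. Input DNA is not selected by methylation, and what set its level apart in control was not tested.

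**Figure D5:**
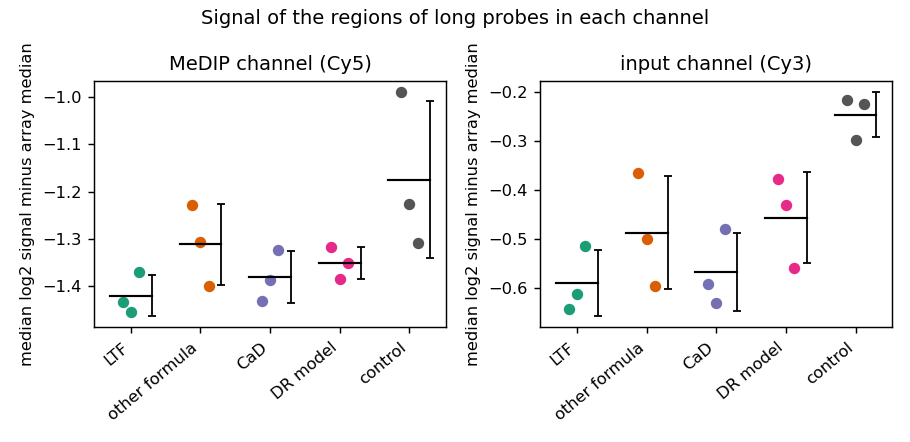
Signal of the long-probe regions in each channel. The y axis is the median over 1429 regions of the log2 processed signal minus the array's median, dots are arrays, lines group means and error bars the SD of 3 arrays; in the input channel the diabetic groups average -0.59 to -0.46 and control -0.25.

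The treated groups were set against control one by one; these comparisons share the 3 control arrays with each other and with the comparison above. With CaD, 242 members (16.9%) were higher than control, against 5.51% of all regions, and 0 were lower, against 1.98%. In both directions 7.49% of all regions were called, and the median difference was 0.21 (over all regions 0.04). With LTF, 246 (17.2%) were higher, against 4.84% of all regions, and 2 (0.14%) were lower, against 2.43%. In both directions 7.28% were called, and the median difference was 0.20 (over all regions 0.01). With the other formula, 67 (4.69%) were higher, against 1.63% of all regions, and 0 were lower, against 0.81%. In both directions 2.44% were called, and the median difference was 0.16 (over all regions 0.01). The median of the members was thus above that of all regions for each treatment. All 3 counts shrank without control replicate 3, to 40 for CaD, 79 for LTF and 0 for the other formula. The share of all regions called shrank too, to 1.26%, 2.32% and 0.00596%. With scan as a random block the counts were 0, 1 and 0 (0.00596%, 0.0238% and 0% of all regions). Without CaD replicate 2 the CaD count was 0 (0.00596% of all regions), and without CaD replicate 1 it was 22 (0.56%). The LTF count was 42 without LTF replicate 2 (0.971% of all regions) and 74 without LTF replicate 1 (1.88%). The count for the other formula was 0 without its replicate 2 (0.0119% of all regions) or 3 (0%).

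Within scan day 1, the CaD comparison (CaD replicate 3, control replicate 1) gave a median of 0.02, against -0.03 over all regions. On day 3 (CaD replicates 1 and 2, control replicates 2 and 3) it gave a median of 0.31, against 0.06 over all regions. There 388 members were called, and 9.98% of all regions. The other formula, all on day 1, gave a median of 0.02 against control replicate 1, with 56 members higher and 12 lower and 3.61% of all regions called. Day 1 holds a single control array, so a difference between the days cannot be told apart from a difference of that array. LTF shared no day with control.

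Among single regions, the leading one for CaD was on chromosome 7 at 12228316 to 12229916, with -0.77, -0.63 and -0.73 in CaD and -1.29, -1.40 and -1.43 in control (difference 0.66 ± 0.10 (SE), adjusted p = 0.00752). The leading one for LTF was the chromosome 1 region at 142871937 to 142873647 described above, with a difference of 0.85 ± 0.10 (SE, adjusted p = 0.00187); its input signal was lower by a log2 difference of -1.0 (adjusted p = 0.000493), whereas its MeDIP signal differed by -0.20 (adjusted p = 0.378). Next for LTF came a region on X at 128789630 to 128790740, with -0.10, -0.32 and -0.22 in LTF and -1.11, -1.08 and -1.24 in control (difference 0.93 ± 0.12 (SE), adjusted p = 0.0019). The 2 members lower in LTF were the chromosome 9 region at 104822837 to 104824550 (difference -0.44 ± 0.12 (SE), adjusted p = 0.0344) and a 5-probe region of unplaced sequence at 34001258 to 34002289 (difference -0.39 ± 0.11 (SE), adjusted p = 0.0416). In both the MeDIP signal itself was lower, by log2 differences of -0.77 (adjusted p = 0.00407) and -0.53 (adjusted p = 0.0391).

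The second question of the design is whether treatment changes the diabetic profile. For LTF against the DR model, 8 members were higher at an adjusted p under 0.05 (limma), against 0.238% of all regions, and 0 were lower, against 0.661% (0.9% in both directions). The 8 members are 0.56% of those tested. At an unadjusted p under 0.05 there were 251 members (17.6%), against 19.4% of all regions. The median member difference was 0.09, against -0.02 over all regions. With arrays centred within each probe length it was -0.06, against -0.05 over all regions. There 5 members were higher and 22 lower, and 2.12% of all regions were called. The direction over the members thus depends on how probe length is handled. All LTF arrays lay above all DR model arrays in 177 members (12.4%, against 6.71% of all regions) and below them in 40 (2.8%, against 13.6%).

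The first of the 8 lay on chromosome 1 at 142339755 to 142341352, with 8 probes. LTF read -0.33, -0.43 and -0.33, the other formula -0.87, -0.83 and -0.74, CaD -0.83, -0.66 and -0.66, the DR model -0.97, -1.01 and -0.85, and control -0.86, -0.81 and -1.01. LTF stood apart from all 12 other arrays, and CaD also lay above the DR model without overlap (LTF minus DR model 0.58 ± 0.07 (SE), adjusted p = 0.0149). Here the MeDIP signal was higher in LTF, by 0.91 (adjusted p = 0.00596), and the input signal differed by 0.33 (adjusted p = 0.152). The second, on X at 128789630 to 128790740, showed the reverse pattern of channels. It read -0.10, -0.32 and -0.22 in LTF, -0.66, -0.72 and -0.83 with the other formula, -0.54, -0.63 and -0.56 with CaD, and -1.12, -1.16 and -0.57 in the DR model (LTF minus DR model 0.74 ± 0.12 (SE), adjusted p = 0.0245). DR model replicate 3 lay with the treated groups. In this region 45.7% of MeDIP readings were well above background, and MeDIP differed by 0.01 (adjusted p = 0.979) and input by -0.73 (adjusted p = 0.00952).

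The others were on chromosome 4 at 179829450 to 179829835 (difference 0.51 ± 0.10 (SE)), chromosome 3 at 16520212 to 16521846 (0.44 ± 0.08), chromosome 7 at 46399608 to 46401277 (0.46 ± 0.10) and chromosome 1 at 216852576 to 216853504 (0.54 ± 0.12), and, named after their values were seen, X at 126910867 to 126912533 (0.46 ± 0.10) and chromosome 11 at 42296979 to 42298753 (0.43 ± 0.09). The chromosome 7 region read 0.08, 0.18 and 0.14 in LTF and -0.25, -0.60 and -0.12 in the DR model. Over the 8, the median difference was 0.55 in the MeDIP channel, where 5 were higher (7.07% of all regions were), and 0.08 in the input channel, where 1 was lower (4.5% of all regions were). Whether the channels behaved differently here from the members higher in the diabetic groups was not tested. LTF arrays also had the most outlier spots removed, 419 to 820 member probes per array against 22 to 153 in the DR model. With those spots kept 18 members were higher and 1 lower, and 1.94% of all regions were called.

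The count of 8 rested on single arrays. It was 0 without DR model replicate 1 or LTF replicate 1, 1 without DR model replicate 2, LTF replicate 2 or LTF replicate 3, and 121 (116 higher, 5 lower) without DR model replicate 3, where 7.79% of all regions were called. It ranged between 2 and 17 when an array of the other 3 groups was left out. With scan as a random block it was 0. The chromosome 1 region at 142339755 to 142341352 kept its call in 21 of 25 alternatives, with differences of 0.13 to 0.62, whereas the chromosome 1 region at 216852576 to 216853504 kept it in 7. In the lower direction none passed; the closest was the run on chromosome 5 at 4663775 to 4664148, the member of highest level, with 1.09, 0.89 and 0.83 in LTF and 1.34, 1.76 and 1.18 in the DR model (difference -0.49 ± 0.11 (SE), adjusted p = 0.0553).

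Neither of the other treatments gave a call against the DR model. With CaD, 0 members passed (limma, 0% of all regions). There were 193 members (13.5%) at an unadjusted p under 0.05, against 15% of all regions. The median difference was 0.11, against 0.01 over all regions, and -0.01 after quantile normalization. The leading region, on chromosome 4 at 184213574 to 184214038, read 0.12, 0.16 and 0.09 with CaD and -0.31, -0.29 and -0.15 in the DR model (difference 0.38 ± 0.08 (SE), adjusted p = 0.113). In the lower direction it was a region on chromosome 7 at 119736762 to 119738416, with 0.35, 0.26 and 0.31 with CaD and 0.62, 1.06 and 0.49 in the DR model (difference -0.42 ± 0.11 (SE), adjusted p = 0.159). Without DR model replicate 3 the count was 129, of which 124 were higher, and 8.51% of all regions were called.

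With the other formula, 0 members passed against the DR model (limma, 0% of all regions). There were 124 members (8.68%) at an unadjusted p under 0.05, against 15.1% of all regions. The median difference was 0.06, against -0.02 over all regions, and -0.02 after quantile normalization. The chromosome 7 region at 119736762 to 119738416 led the lower direction here too, with 0.23, 0.20 and 0.22 with the other formula and 0.62, 1.06 and 0.49 in the DR model (difference -0.51 ± 0.11 (SE), adjusted p = 0.103); both comparisons use the same 3 DR model arrays. The leading higher region was a run of 3 probes on X at 93150621 to 93151015, with -0.69, -1.15 and -1.14 with the other formula and -2.04, -1.72 and -1.38 in the DR model (difference 0.72 ± 0.17 (SE), adjusted p = 0.103). Without DR model replicate 3 the count was 68, and 6.76% of all regions were called. DR model replicate 3, whose member median of -0.86 was near the treated arrays, was the array whose removal moved the counts of all 3 treatment comparisons most.

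LTF and CaD, which share the insulin dose, were not told apart in the long-probe regions. Between them 0 members passed (limma), against 0.0179% of all regions. There were 88 members (6.16%) at an unadjusted p under 0.05, against 7.63% of all regions. The median difference was -0.01, with quartiles of -0.10 and 0.07, and a typical member had an SE of 0.12, so differences of that order would not have been detected. The leading region was again on chromosome 1 at 142339755 to 142341352 (difference 0.35 ± 0.07 (SE), adjusted p = 0.241), and in the lower direction a region on chromosome 5 at 53434878 to 53436340 read -1.25, -1.28 and -1.14 in LTF and -0.80, -0.73 and -0.81 in CaD (difference -0.45 ± 0.10 (SE), adjusted p = 0.241).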

How the data were processed

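Dual-channel Agilent arrays compared MeDIP DNA (Cy5) with input DNA (Cy3) of 15 rats, per the labels. The deposited scanner output gives an intensity for each spot in both channels, made with Feature Extraction 11.0.1.1 per the file headers; its processed signals are background-subtracted and dye-normalised. The deposited output also gives a log10 ratio of Cy5 over Cy3 that Feature Extraction computed from those signals, per the file headers. Probe positions refer to rn4 (RGSC 3.4). A deposited table of the authors' values, used only as an alternative, was treated as log2; neither its log base nor its centring is stated. The submitters' processing notes name limma without saying what it did.

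From the processed signals, log2(Cy5/Cy3) was taken for 172669 probes per array without the 6856 control spots. Outlier spots were removed, and each array was centred on its median with no loess or quantile step. Of 17668 runs, 884 had under 3 probes; 16782 regions had values on all arrays. Region means were fitted with limma 3.58.1 (lmFit and eBayes, R 4.3.3) with 5 group means over 15 arrays. P-values were adjusted by Benjamini-Hochberg over all regions, with a threshold of 0.05. The fit was tested on simulated data in which arrays varied independently. In the real data the estimated correlation of arrays within scans was 0.39, so the simulation did not cover scan effects. The R packages jsonlite 2.0.0 and data.table (version 1.17.8) read the files. Named regions were, per comparison, up to 6 higher and 6 lower members of smallest p among those in which the groups did not overlap, plus the 5 highest, the 5 lowest, the largest, the longest-probed and those next to the length threshold; others are marked where named. The members and rules were chosen with earlier results of these data known. Arrays of a group are biological replicates per the labels. The small number of arrays limits precision.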

Additional observations from a re-analysis of the deposited data

How the results depend on the processing

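Each group had 3 arrays, which limits precision, and many MeDIP readings of the members were not well above background. The members' median level of -0.97 kept its sign under all alternatives but moved to -0.57 after loess, -0.25 with normexp (offset 50, on median signals in place of the mean signals planned), -0.52 in the authors' table, -0.26 when centred by probe length and -0.88 with a length of at least 53 nt.

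Counts of members called by limma follow, with their range when an array is left out. Percentages in brackets are the share of all regions called. Where a scan or day left a single array in a group, the median difference is given instead of the count or beside it. DR model minus control, 0 as reported (0%), gave 86 after loess (1.49%), 4 with scan as a fixed block (0.232%) and 10 within day 3 (0.28%). With an array left out it gave 0 to 9 (0.232%). Its median difference was 0.12 within scan 5, the same estimate as with the fixed block. CaD minus DR model, 0 as reported (0%), gave 0 to 129 (8.51%) with an array left out. Its median difference was 0.12 within day 1, against -0.03 over all regions. Other formula minus DR model, 0 as reported (0%), gave 5 in the authors' table (0.626%). With an array left out it gave 0 to 68 (6.76%). Within day 1 it gave 95 (5.85%), a count that rests on DR model replicate 2 alone. Its median difference there was 0.13, against -0.02 over all regions. LTF minus DR model, 8 as reported (0.9%), gave 72 with normexp (2.62%), 13 in the authors' table (0.923%) and 27 when centred by probe length (2.12%). It gave 19 with outlier spots kept (1.94%), 15 without dim probes (1.61%) and 3 with a length of at least 55 nt (0.9%). With scan as a random block it gave 0 (0%), and with an array left out 0 to 121 (7.79%).

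Mean of the diabetic groups minus control, 295 as reported (8.71%), gave 64 after quantile (3.34%), 624 after loess (20.1%) and 173 when centred by probe length (6.89%). It gave 75 with scan as a random block (1.69%) and 54 (1.63%) to 437 (15.2%) with an array left out. CaD minus control, 242 as reported (7.49%), gave 29 after quantile (1.66%), 530 after loess (17.5%) and 416 with normexp (14.2%). It gave 124 in the authors' table (8%) and 116 when centred by probe length (5.06%). With scan as a random block it gave 0 (0.00596%), and as a fixed block 0 (0%). Within day 3 it gave 388 (9.98%). Within day 1 its median difference was 0.02, against -0.03 over all regions. With an array left out it gave 0 (0.00596%) to 340 (8.87% without control replicate 1, 11.2% without DR model replicate 2). Other formula minus control, 67 as reported (2.44%), gave 8 after quantile (0.53%), 324 after loess (10.2%) and 136 with normexp (5.12%). It gave 104 in the authors' table (5.83%), 130 with outlier spots kept (4.5%) and 140 without dim probes (4.5%). With scan as either block it gave 0 (0%), and with an array left out 0 to 160 (4.61%). LTF minus control, 248 as reported (7.28%), gave 122 after quantile (5.3%), 467 after loess (14.2%) and 477 with normexp (10.3%). It gave 100 when centred by probe length (5.14%), 1 with scan as a random block (0.0238%) and 42 (0.971%) to 327 (9.93%). LTF minus CaD gave 0 throughout.

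Arrays that share a replicate number did not deviate together: 5 of 30 same-number pairs correlated over 0.1 (range -0.424 to 0.331), so the numbers were not taken as pairs. With the replicate block the counts were 3 (LTF minus DR model), 217 (diabetic minus control), 148 (CaD minus control), 28 (other formula minus control), 168 (LTF minus control) and 0 in the remaining comparisons. The shares of all regions called for the first 5 of these were 0.161%, 5.94%, 4.05%, 0.959% and 4.33%. Fixed scan blocks could not be fitted for comparisons with LTF or the diabetic mean.

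Over the alternatives, named regions reversed 8 times: chromosome 13 at 63042588 to 63043121 (other formula minus DR model, -0.04, fixed scan block), chromosome 4 at 167140483 to 167142014 (other formula minus DR model, 0.03, without dim probes), chromosome 4 at 167460343 to 167462112 (LTF minus DR model, 0.11 with normexp, 0.01 in the authors' table), chromosome 7 at 3161191 to 3162810 (other formula minus control, 0.03, normexp), chromosomes 20 at 34902640 to 34903659 and 1 at 2374783 to 2375686 (other formula minus control, 0.13 and 0.21, fixed scan block) and chromosome 11 at 41793201 to 41794879 (LTF minus CaD, 0.02, authors' table). In 169 other cases a called region lost its call, and in 81 an uncalled region gained one. For the diabetic mean minus control, the chromosome 14 region at 635381 to 636970 kept its call in 23 of 25 alternatives. Its differences ran from 0.07 to 0.43. The chromosome 1 region at 142871937 to 142873647 kept its call in 24 of 25, with differences of 0.11 to 0.66. The cause of these changes was not tested.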
